A study of Mus musculus with 8 samples.

Results

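The genes described here are 9 of those that carry an interferon signal from the cell surface to the nucleus: the receptor chains Ifnar1, Ifnar2, Ifngr1 and Ifngr2, the Janus kinases Jak1, Jak2 and Tyk2, and the transcription factors Stat2 and Irf9. They were chosen by name, as 9 of the 28239 gene symbols in the count table, and all 9 were among the 12700 genes (45%) with enough counts to be tested. The table holds MACE-seq counts, in which a short read near the 3′ end of each transcript is counted, from 8 libraries of T cells on day 2 of differentiation into regulatory T cells (Tregs). Naive CD4+ T cells had been isolated by negative selection from the spleens of 10 to 12 week old female and male mice and were cultured with IL-2, TGF-β and beads carrying antibodies to CD3 and CD28. There were 4 libraries from wild-type (WT) C57BL/6 mice and 4 libraries labelled Alox15-/-, from a line on the C57BL/6 background that lacks the lipid-oxidizing enzyme 15-lipoxygenase in the whole animal and not in T cells alone. The study's methods give Charles River as the source of the WT mice and The Jackson Laboratory as that of the Alox15-/- line. Genotype and source of the mice therefore cannot be told apart. Which libraries came from female and which from male mice is not given in the sources used here.

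Library totals ranged between 3723151 and 6952596 counts (median 4794416) for the Alox15-/- label and between 4810125 and 9538962 counts (median 6417785) for WT. Levels are given as counts per 1000000 (CPM) scaled by the TMM method and are not divided by transcript length, so they were compared between libraries and not between genes. Alox15 itself, at chr11:70344152-70352031 on the minus strand, was at 63.7 to 70.5 CPM in the 4 libraries labelled Alox15-/- and at 1.88 to 9.02 CPM in the 4 WT libraries. This order goes against the labels as far as the RNA level is concerned. The part of the gene that is deleted is not given in the sources used here, so counts near the 3′ end do not check the deletion, and the libraries are called by their labels throughout. The summed level of 11 T cell and Treg markers was 3840 to 4108 CPM in the libraries labelled Alox15-/- and 4000 to 4219 CPM in WT, with none of the 11 past the test. Markers of other cells were higher in the libraries labelled Alox15-/-. Erythroid markers summed to 908 to 3491 CPM against 33.9 to 123 CPM in WT, and mast cell and basophil markers to 143 to 368 CPM against 59.3 to 84.0 CPM. Myeloid markers summed to 48.9 to 336 CPM against 12.3 to 19.7 CPM, eosinophil markers to 20.6 to 72.5 CPM against 1.25 to 6.93 CPM, and those of NK and γδ T cells to 114 to 209 CPM against 58.1 to 73.4 CPM. B cell markers (212 to 310.2 CPM against 208 to 301 CPM) and CD8 T cell markers (12.1 to 21.9 CPM against 21.5 to 31.8 CPM) overlapped between the groups. These are whole cultures, in which fewer cells of a type and less RNA per cell cannot be told apart.

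Type I interferons, the interferon-α and -β family, bind a receptor made of Ifnar1 and Ifnar2, to which the kinases Tyk2 and Jak1 are attached. The activated kinases phosphorylate Stat2, which joins Irf9 in a complex called ISGF3 that binds the interferon-stimulated response element in target promoters. Interferon-γ, the type II interferon, binds Ifngr1 and Ifngr2, which carry Jak1 and Jak2, and its signal is read at gamma-activated sites in target promoters. In Tregs both pathways can change stability and suppressive function, and Jak1 and Jak2 also serve many other cytokine receptors.

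Of the members, 3 of the 4 receptor genes lie in 1 cluster on mouse chromosome 16, in the order Ifnar2, Il10rb, Ifnar1 and Ifngr2, within 192.8 kb and on the same strand. In the GENCODE annotation of GRCm38, Ifnar2 is at chr16:91372783-91405589, Ifnar1 at chr16:91485238-91507441 and Ifngr2 at chr16:91547072-91565623, all on the plus strand. Ifngr1 lies apart, at chr10:19591949-19610229 on the plus strand. Stat2 is on the same chromosome as Ifngr1, at chr10:128270559-128292849 (plus). The kinases are at chr4:101152367-101265282 for Jak1 (minus), chr19:29251828-29313080 for Jak2 (plus) and chr9:21104068-21131243 for Tyk2 (minus), and Irf9 is at chr14:55603571-55610030 (plus). Some counts could be shared with neighbours. On the same strand, Ifnar2 overlaps Gm21970, Jak1 overlaps Gm12785 and Irf9 overlaps Rnf31. On the opposite strand, Jak1 overlaps Raver2 and Tyk2 overlaps 1700084C06Rik, and whether the counting used strand is not given in the sources used here. The last 500 bases of 2 of the 3 coding Ifnar1 transcripts matched transcripts of 83 other genes at 90% identity or more over at least 100 bases, so the Ifnar1 count is uncertain. No such match was found for the other members, except that of Ifnar2 with Gm21970.

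The promoters of the 9 genes were searched for the sequences that these factors read, because the group holds both the readers and possible targets of the signal. The window ran from 250 bases before to 50 bases after each RefSeq start site (assembly GRCm38.p6), and all 9 genes matched, with 10 promoters. The core of the interferon-stimulated response element, GAAANNGAAA on either strand, was in the promoter of 1 of the 9 genes, Stat2, beside 3.99% of all 27025 genes with such a promoter (3.44% of the 32851 promoters). The core of a gamma-activated site, TTCNNNGAA, which reads the same on both strands, was in the promoters of Ifnar1 and Ifnar2, 2 of the 9 genes, beside 9.55% of all genes (8.3% of promoters). A match of these letters is not a measured binding site. The 3 promoter stretches of the members are shown, followed by those of 3 target genes whose counts are described further on, each as 60 bases with the matching letters in capitals.
Stat2, chr10:128270251-128270310, plus strand: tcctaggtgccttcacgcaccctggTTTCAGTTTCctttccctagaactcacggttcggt
Ifnar2, chr16:91372543-91372602, plus strand: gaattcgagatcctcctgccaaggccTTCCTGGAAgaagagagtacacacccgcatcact
Ifnar1, chr16:91485160-91485219, plus strand: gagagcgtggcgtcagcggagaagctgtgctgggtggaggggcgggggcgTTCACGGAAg
Isg15, chr4:156200856-156200915, minus strand: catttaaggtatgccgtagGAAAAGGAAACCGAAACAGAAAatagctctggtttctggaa
Gbp2, chr3:142620579-142620638, plus strand: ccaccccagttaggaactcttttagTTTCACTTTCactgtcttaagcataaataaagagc
Irgm2, chr11:58214888-58214947, plus strand: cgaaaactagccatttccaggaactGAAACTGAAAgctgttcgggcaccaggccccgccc
The match in Stat2 starts 222 bases before its start site and is on the reverse strand, as is the one in Gbp2. The match in Ifnar2 starts 214 bases before its start, and the one in Ifnar1 straddles the start site itself. Isg15 holds 3 overlapping matches that begin 78 bases before its start. Those of Gbp2 and Irgm2 begin 59 and 64 bases before theirs.

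The comparison of the 2 groups asks whether the genes that receive and relay interferon differed in RNA level between the cultures. None of the 9 passed edgeR's quasi-likelihood test at an adjusted p of 0.05, and DESeq2 and limma-voom also called 0 of 9. Over all genes tested 158 passed, which is 1.24%, so a count of 0 among 9 genes lies near the background. The members' log2 fold changes ran from -0.07 to 0.38 (0.955-fold to 1.31-fold), with 5 above 0 and 4 below, and their median of 0.08 stood beside -0.01 over all genes. Adjusted p-values of the members ran from 0.473 to 0.988. At an unadjusted p of 0.05 there was 1 member, Ifngr1, where 7.84% of all genes tested passed, and there was none without library 4 labelled Alox15-/- or without WT library 1. There were 2 without WT library 3 (Ifngr1 and Stat2) and 2 without WT library 4 (Ifngr1 and Jak2). The groups did not overlap for 1 member, Ifngr2, where 5.25% of all genes did not overlap (2.74% with the libraries labelled Alox15-/- higher and 2.51% with them lower).

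The counts behind these values and the spread between libraries limit what size of difference could have been seen. The members' counts were between 49 and 1781 per library. The standard errors of their log2 fold changes were 0.101 to 0.269, with a median of 0.142 beside 0.156 over all genes. The 95% interval held 0 for 8 of the 9, and for 7 of the 9 it lay wholly within a change of 1.5-fold in either direction. The 2 whose intervals reached beyond 1.5-fold were Ifngr1 and Stat2, so the values still allow a rise of more than 1.5-fold for them.

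**Figure D1:**
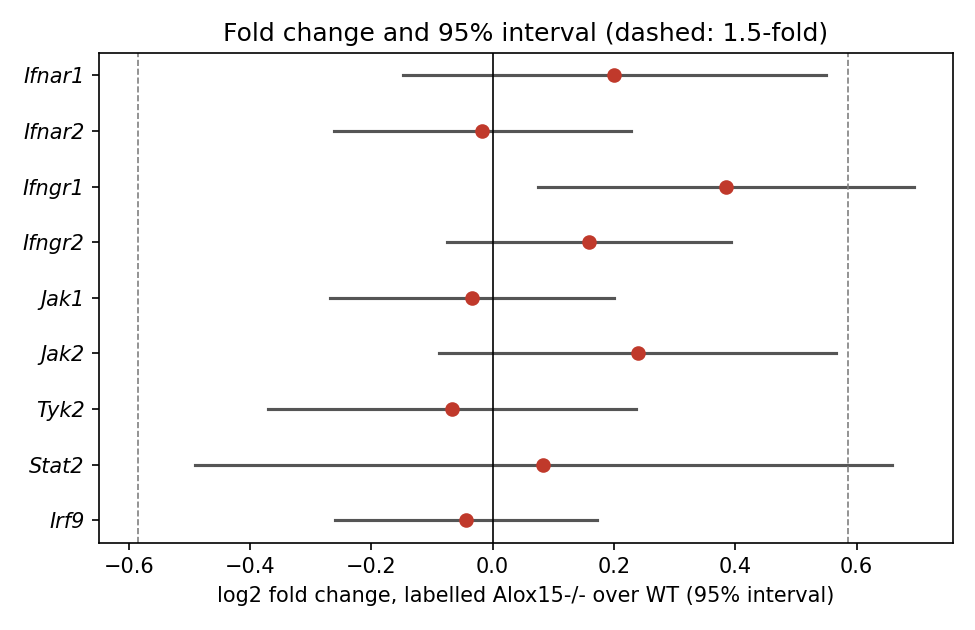
Log2 fold change of each of the 9 genes, libraries labelled Alox15-/- over WT (x axis), with the 95% interval from edgeR as a bar and dashed lines at 1.5-fold in either direction. The bar of Ifngr1 starts at 0.07, to the right of 0, the other 8 bars cross 0, and those of Ifngr1 and Stat2 reach past the right dashed line.

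Ifngr1 encodes the chain of the interferon-γ receptor that binds the ligand. Its level was 33.07, 35.01, 29.31 and 38.70 CPM in libraries 1 to 4 labelled Alox15-/- and 23.1, 27.9, 31.2 and 21.6 CPM in WT libraries 1 to 4. Of the libraries labelled Alox15-/-, 3 of 4 lay above all WT libraries, while the lowest, library 3, lay under the highest WT library, also library 3. The means were 34.0 ± 3.91 and 25.9 ± 4.40 CPM (SD, n = 4 each). Ifngr1 had a log2 fold change of 0.38 (SE 0.145, interval 0.07 to 0.69) and an adjusted p of 0.473 by edgeR. Without WT library 3 it was 0.50, with an adjusted p of 0.188, and without library 4 labelled Alox15-/- it was 0.31, with an adjusted p of 0.828. These were the smallest and the largest adjusted p of Ifngr1 over the 17 other settings tried.

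Ifngr2 encodes the second chain of that receptor, which brings Jak2 to the complex. It was at 49.7, 48.0, 48.6 and 60.3 CPM in libraries 1 to 4 labelled Alox15-/- and at 45.0, 47.6, 45.5 and 47.8 CPM in WT libraries 1 to 4. Every library labelled Alox15-/- was above every WT library, but the lowest of the first (48.04 CPM) and the highest of the second (47.85 CPM) were close, and library 4 labelled Alox15-/- stood above the other 3. Ifngr2 had a log2 fold change of 0.16 (SE 0.109, interval -0.07 to 0.39, adjusted p = 0.788 by edgeR). Without that library it was 0.07.

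Ifnar1 and Ifnar2 encode the chains of the type I interferon receptor, to which Tyk2 and Jak1 bind respectively. Ifnar1 was at 25.3, 24.2, 18.2 and 24.7 CPM in libraries 1 to 4 labelled Alox15-/- and at 18.8, 20.7, 24.3 and 15.7 CPM in WT. Library 3 labelled Alox15-/- was the low one of its group and WT library 3 the high one of the other, and the groups overlapped. For Ifnar1 the log2 fold change was 0.20 (interval -0.15 to 0.55, adjusted p = 0.831). With 1 library left out it ran from 0.11 (without WT library 4) to 0.32 (without WT library 3). Ifnar2 was at 35.00, 36.64, 34.80 and 37.84 CPM against 41.24, 36.84, 35.00 and 32.95 CPM in WT. The WT libraries spanned the whole range of the libraries labelled Alox15-/-, which varied little, with a coefficient of variation of 3.99%. For Ifnar2 it was -0.02 (interval -0.26 to 0.23, adjusted p = 0.988). Il10rb, the gene between them on chromosome 16 and a chain of the interleukin-10 receptor, had a log2 fold change of -0.06 (adjusted p = 0.963). It is named here for its position, after its value was seen.

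Jak1 is the kinase common to both pathways and Jak2 that of the interferon-γ receptor, and Tyk2 that of the type I receptor. Jak1 was at 179.8, 171.5, 130.3 and 165.2 CPM in libraries 1 to 4 labelled Alox15-/- and at 159.1, 163.0, 179.6 and 159.5 CPM in WT. Library 3 labelled Alox15-/- was the lowest of all 8, and the other 7 overlapped. Jak1 had a log2 fold change of -0.03 (interval -0.27 to 0.20, adjusted p = 0.969). It was above 0 without library 3 labelled Alox15-/- (0.06) and without WT library 3 (0.01).

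Jak2 was at 107, 94.5, 85.7 and 89.2 CPM in libraries 1 to 4 labelled Alox15-/- and at 68.8, 65.8, 72.6 and 112 CPM in WT. WT library 4 was the highest of all 8, while the other 3 WT libraries were below every library labelled Alox15-/-. This gave a log2 fold change of 0.24 (SE 0.153, interval -0.09 to 0.57, adjusted p = 0.773). Without WT library 2 it was 0.16, with an adjusted p of 0.891. Without WT library 4 it was 0.44 with an adjusted p of 0.0727, still short of the threshold. That was the smallest adjusted p of any member under any setting.

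Tyk2 was at 25.8, 20.1, 21.4 and 26.9 CPM in libraries 1 to 4 labelled Alox15-/- and at 22.3, 24.7, 27.9 and 23.9 CPM in WT. The groups overlapped through most of their range. Tyk2 had a log2 fold change of -0.07 (interval -0.37 to 0.24, adjusted p = 0.946).

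Stat2 is the STAT that is particular to type I and type III interferon signaling, and Irf9 is the DNA-binding partner that completes ISGF3. Stat2 was at 19.8, 18.5, 17.2 and 19.3 CPM in libraries 1 to 4 labelled Alox15-/- and at 11.0, 17.5, 30.0 and 10.3 CPM in WT. The WT libraries held both the lowest and the highest values of all 8, and their coefficient of variation was 53.1% against 6.03% in the libraries labelled Alox15-/-. The log2 fold change of 0.08 (SE 0.269, interval -0.49 to 0.66, adjusted p = 0.970) rested on WT libraries that differed among themselves from 10.3 to 30.0 CPM. It was 0.53 without WT library 3 (adjusted p = 0.388) and -0.08 without WT library 1 or WT library 4. Irf9 was at 67.1, 73.6, 71.3 and 67.6 CPM against 69.3, 74.5, 78.9 and 64.8 CPM in WT. Its values lay close together in all 8 libraries. For Irf9 the log2 fold change was -0.04, with the narrowest interval among the members (-0.26 to 0.17, adjusted p = 0.951).

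**Figure D2:**
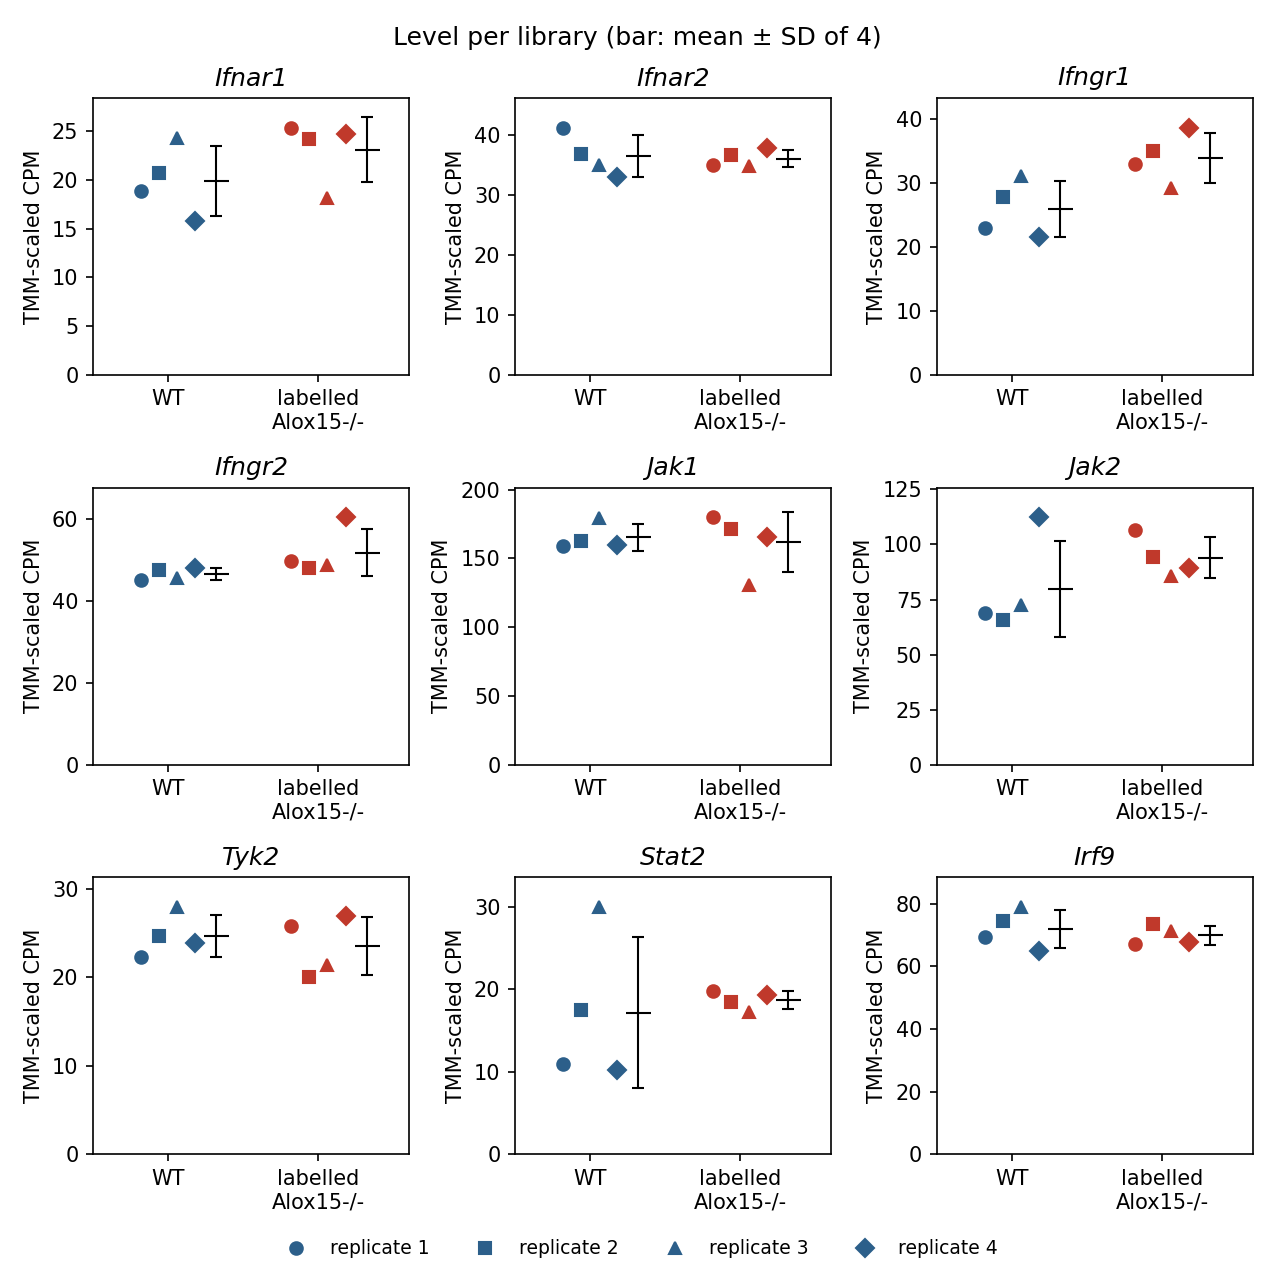
TMM-scaled CPM (y axis, from 0) of each of the 9 genes in every library, WT in blue and libraries labelled Alox15-/- in red, with 1 marker shape per replicate number and a bar for the mean ± SD of 4 libraries. Stat2 spreads from 10.3 to 30.0 CPM within WT, WT library 4 stands alone for Jak2, and only for Ifngr2 are the 2 groups apart, by 48.04 against 47.85 CPM.

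No WT library was high or low for all members. WT library 3 was the highest of its group for 6 of the 9 genes (Ifnar1, Ifngr1, Jak1, Tyk2, Stat2 and Irf9), and WT library 4 was the lowest for 5 (Ifnar1, Ifnar2, Ifngr1, Stat2 and Irf9). WT library 4 was also the highest for Ifngr2 and Jak2, and WT library 1 was the highest for Ifnar2 and the lowest for Ifngr2, Jak1 and Tyk2. WT library 3 had the largest total count of the 8 (9538962) and WT library 4 the smallest of its group (4810125), and the part of depth in these values was not tested. Among the libraries labelled Alox15-/-, library 3 was the lowest of its group for 6 genes (Ifnar1, Ifnar2, Ifngr1, Jak1, Jak2 and Stat2). Library 1 was the highest for 4 (Ifnar1, Jak1, Jak2 and Stat2) and library 4 for 4 others (Ifnar2, Ifngr1, Ifngr2 and Tyk2). Library 3 labelled Alox15-/- also had the highest erythroid marker sum of all 8, at 3491 CPM. Library 2 with that label, at 3317 CPM, was the lowest of its group for 2 genes (Ifngr2 and Tyk2). A link between marker sums and members was not tested.

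Genes that work in pairs were also compared within each library, since the log2 ratio of 2 counts does not depend on how libraries are scaled. The size of such a ratio is not a ratio of molecules, and only its difference between groups was read. The log2 ratio of Ifngr1 to Ifngr2 was -0.60 ± 0.114 in the libraries labelled Alox15-/- and -0.86 ± 0.258 in WT (SD, n = 4 each), and that of Ifnar1 to Ifnar2 was -0.65 ± 0.201 against -0.89 ± 0.274. These differences were 0.25 and 0.24 on the log2 scale, and the groups overlapped. With 1 library left out the first ran from 0.16 (without WT library 4) to 0.36 (without WT library 3), and the second from 0.15 (without WT library 1) to 0.36 (without WT library 3). The ratio of Jak2 to Jak1 was -0.78 ± 0.129 against -1.08 ± 0.387, where 3 WT libraries lay between -1.31 and -1.21 and WT library 4 at -0.51. Without WT library 4 the difference rose from 0.31 to 0.50. The ratio of Tyk2 to Jak1 differed by -0.03 (0.07 without library 2 labelled Alox15-/-), and that of Stat2 to Irf9 by 0.30, from -1.90 ± 0.140 against -2.20 ± 0.599. Stat2 to Irf9 spanned -2.66 to -1.40 within WT alone, and its difference was 0.57 without WT library 3, 0.14 without WT library 1 and 0.15 without WT library 4. All 5 ratios overlapped between the groups, and they were given no test.

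**Figure D3:**
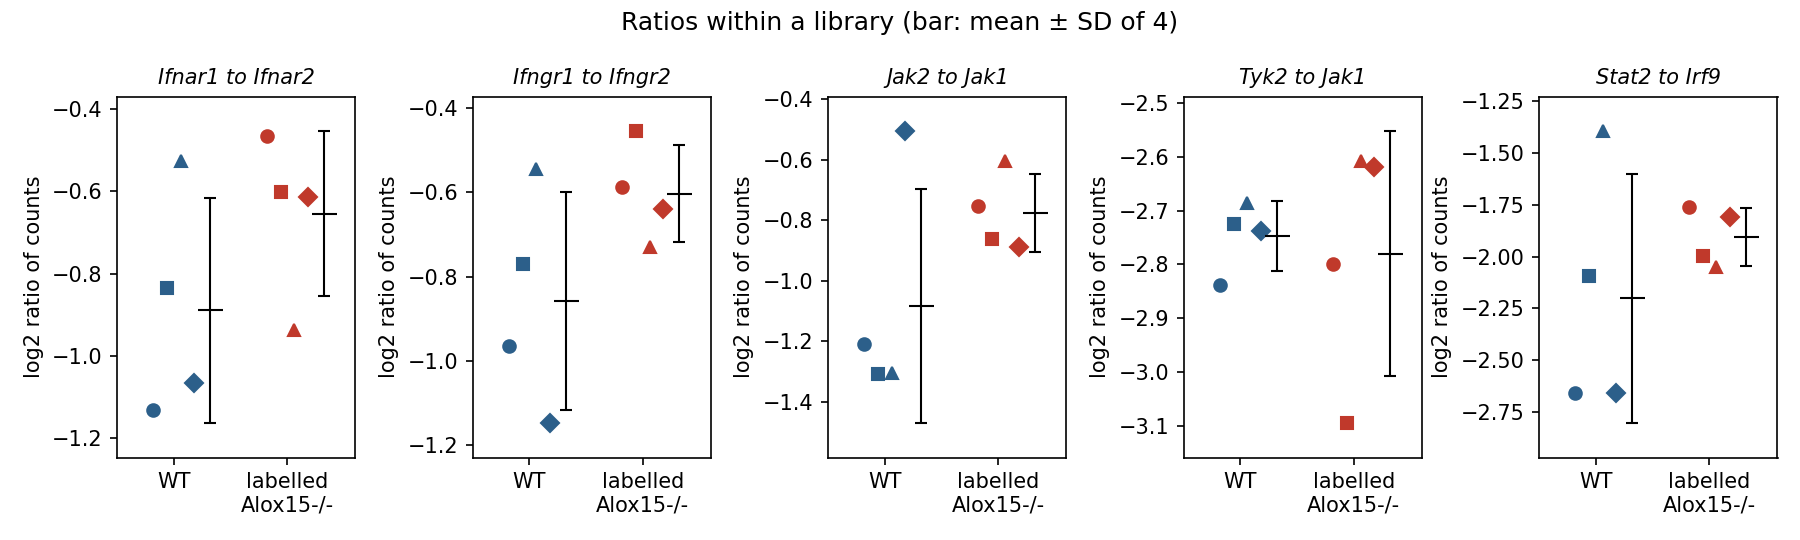
Log2 ratio of counts within a library (y axis, 1 scale per panel) for 5 pairs of partner genes, WT in blue and libraries labelled Alox15-/- in red, with marker shapes for replicate 1 (circle), 2 (square), 3 (triangle) and 4 (diamond) and a bar for the mean ± SD of 4 libraries. The groups overlap in each panel, and WT library 4 (Jak2 to Jak1, -0.51) and WT library 3 (Stat2 to Irf9, -1.40) lie above the rest of WT.

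The genes whose levels over the 8 libraries were most like those of Ifngr1, the member with the smallest p, were found by the root mean square distance of log2 CPM, each gene centred on its own mean. They were Zfp865, encoding a zinc finger protein, at a distance of 0.053, Mutyh, a DNA glycosylase of base excision repair, at 0.086, and Nfix, a nuclear factor I transcription factor, at 0.087. None of the 3 passed the test, with adjusted p-values of 0.750, 0.810 and 0.546.

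The other genes of the pathway were read from lists ordered from ligand to target, as counts and medians from the same fit. Of 21 interferon genes looked for, 3 were in the table and 1 was tested, Ifng, the gene of interferon-γ. It was at 21.7, 10.6, 9.46 and 5.18 CPM in libraries 1 to 4 labelled Alox15-/- and at 4.55, 6.57, 2.02 and 7.77 CPM in WT. In 3 of the 4 libraries labelled Alox15-/- it was above all WT libraries, and library 1 was the highest. Its log2 fold change was 1.20 (interval 0.30 to 2.09), with an adjusted p of 0.385. Genes that mark NK and γδ T cells, other cells that make interferon-γ, had higher sums in all 4 libraries labelled Alox15-/-, and their part in the Ifng values was not tested. The other 2 ligand genes listed, Ifnz and Ifnl2, had at most 2 counts in any library.

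The remaining Janus kinases and STATs, and other receptors that use the same kinases, held no gene past the test in either direction, 0 of 7 and 0 of 11 tested, beside 1.24% of all genes. At an unadjusted p of 0.05 there was 1 gene in each list, beside 7.84% of all genes. The median log2 fold changes were 0.01 and 0.11. The ends of the first list were Stat4, which relays interleukin-12, at 0.96 (adjusted p = 0.612), and Stat6, which relays interleukin-4, at -0.21 (adjusted p = 0.773). Those of the second were Il12rb2, a chain of the interleukin-12 receptor, at 0.69 (adjusted p = 0.697), and Il2rb, the β chain of the interleukin-2 receptor, at -0.19 (adjusted p = 0.766).

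Among 13 inhibitors of interferon signaling, 1 was higher and 0 lower past the test, where 1.05% of all genes tested were higher and 0.197% lower. At an unadjusted p of 0.05 there were 4 of the 13, beside 7.84% of all genes. Usp18, Socs3 (log2 fold change 0.78, adjusted p = 0.142 by edgeR) and Socs1 (0.29, adjusted p = 0.458) were higher, and Cish was lower. Socs3 and Socs1 are outside the rule for named genes. The list's median log2 fold change was 0.01. The gene that rose past the test was Usp18, an ISG15 protease that also binds Ifnar2 and blocks Jak1 there. It was at 10.1, 26.9, 16.8 and 10.7 CPM in libraries 1 to 4 labelled Alox15-/- and at 5.17, 6.89, 5.75 and 5.88 CPM in WT. The groups did not overlap, and libraries 2 and 3 labelled Alox15-/- were the highest. The log2 fold change was 1.42 (SE 0.280, adjusted p = 0.0166). The lowest of the list was Cish, a suppressor of cytokine signaling, at -0.30 (adjusted p = 0.300).

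Targets of type I interferon were higher past the test in 7 of 25 genes and lower in 0, with a median log2 fold change of 0.46. Targets of interferon-γ were higher in 4 of 16 and lower in 0, with a median of 0.41. The share of all genes that were higher was 1.05% and their median -0.01. These directions were known from earlier results of the same libraries and are not independent evidence. The list names do not say which interferon, if any, acted on a gene, and this was not tested. At an unadjusted p of 0.05 there were 14 of the 25 type I and 11 of the 16 interferon-γ targets, beside 7.84% of all genes. Set beside them, the 9 receptors, kinases and factors had 0 past the test and a median of 0.08.

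The type I targets that rose with the smallest p-values were Xaf1, a pro-apoptotic factor (log2 fold change 2.23, adjusted p = 0.000105), Isg15, the ubiquitin-like modifier (1.59, adjusted p = 0.0112), Usp18, Ifit3, an antiviral RNA-response protein (1.58, adjusted p = 0.0209), and Irf7, the factor that drives interferon-α genes (1.26, adjusted p = 0.0226). Isg15, whose promoter holds the 3 overlapping elements shown above, was at 5.31, 10.6, 7.00 and 6.62 CPM in libraries 1 to 4 labelled Alox15-/- and at 1.88, 1.92, 2.32 and 3.78 CPM in WT. All of the first were above all of the second, at counts of 12 to 46 per library. Xaf1 lies 1.96 Mb from Alox15 on chromosome 11. The other 2 that passed, outside the rule for named genes, were Ifitm3, a membrane protein that blocks virus entry (2.10, adjusted p = 0.0361), and Ifi27l2a (0.56, adjusted p = 0.0284). The lowest of the list was Dhx58, a helicase of RNA sensing, at -0.10 (adjusted p = 0.971).

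The 4 interferon-γ targets that rose were Irgm2, an immunity-related GTPase (1.06, adjusted p = 0.00120), and 3 guanylate-binding proteins, Gbp5 (0.90, adjusted p = 0.00614), Gbp2 (0.88, adjusted p = 0.0171) and Gbp7 (1.22, adjusted p = 0.0239). Gbp2 was at 243, 291, 219 and 148 CPM in libraries 1 to 4 labelled Alox15-/- and at 132, 145, 114 and 95.5 CPM in WT, so the groups were apart, with 148 CPM just above 145 CPM. Irgm2 was at 41.0, 42.3, 43.7 and 30.9 CPM against 19.4, 22.3, 18.4 and 14.9 CPM, and it lies 12.1 Mb from Alox15. The gene with the highest log2 fold change was Cxcl10, a chemokine, at 1.58 (adjusted p = 0.104), and the lowest was Tap1, a peptide transporter of antigen presentation, at 0.04 (adjusted p = 0.967). Element GAAANNGAAA was in the promoters of 13 of 22 type I target genes with a sequence, and of 10 of 17 interferon-γ target genes, beside 3.99% of all genes. Of the genes that rose and had a sequence, it was in 3 of 5 type I targets (Ifit3, Ifitm3 and Isg15) and 4 of 4 interferon-γ targets. The other motif, TTCNNNGAA, was in 6 of the 22 and 7 of the 17, and in 1 of the 5 and 3 of the 4 that rose, beside 9.55% of all genes.

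Calls of single target genes differed in how often they held when 1 library was left out. Of the 8 such fits, Xaf1, Irgm2 and Gbp5 passed in 8, Isg15 and Usp18 in 6, Ifit3, Ifitm3 and Gbp2 in 4, Irf7 and Gbp7 in 3, and Ifi27l2a in 1.

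Markers of erythroid cells, mast cells and basophils, eosinophils, myeloid cells, and NK and γδ T cells moved with these target genes, with 5 of 5, 7 of 8, 2 of 2, 5 of 6 and 5 of 7 tested markers higher past the test, and their part in the result was not tested. Of the 3 B cell markers tested, 1 was lower past the test, Ms4a1 (log2 fold change -2.64, adjusted p = 0.00413 by edgeR). Neither of the CD8 T cell markers passed. Libraries 2 and 3 labelled Alox15-/- had the highest erythroid, eosinophil and myeloid sums. Without both, 60 genes passed over all genes, with 1 of the type I targets, 0 of the interferon-γ targets and 0 of the inhibitors, and the members stayed at 0. Leaving out single libraries gave 2 to 7 type I and 2 to 6 interferon-γ targets. The type I count fell to 3 without library 2 labelled Alox15-/- and to 2 without library 3 labelled Alox15-/-, WT library 1 or WT library 2. The interferon-γ count fell to 2 without library 1 or library 2 labelled Alox15-/- or WT library 1. The inhibitor count was 0 without library 3 labelled Alox15-/- or WT library 1.

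**Figure D4:**
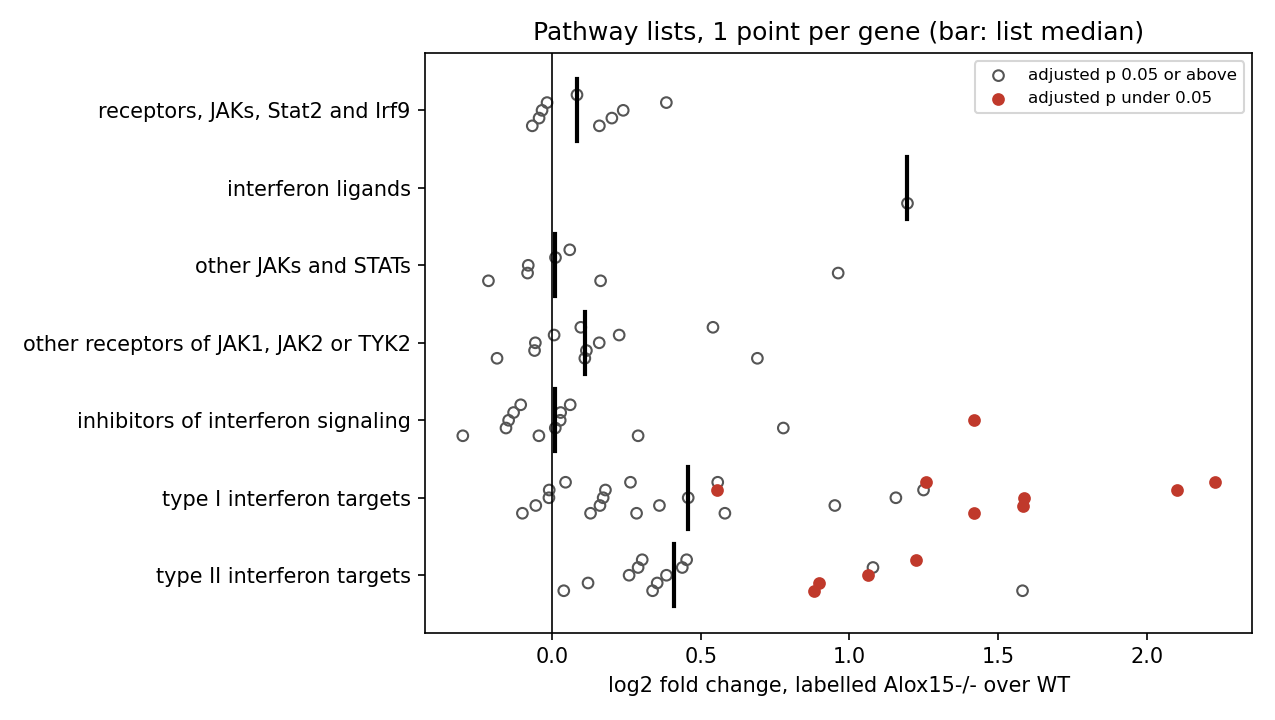
Log2 fold change, libraries labelled Alox15-/- over WT (x axis), of every tested gene in 7 lists from ligand to target (y axis), 1 point per gene, filled red where the adjusted p by edgeR is under 0.05, with a black bar at the list's median. The 9 receptors, kinases and factors lie between -0.07 and 0.38 with no red point, and red points appear for 1 of 13 inhibitors, 7 of 25 type I targets and 4 of 16 interferon-γ targets. The lists share genes: Usp18 is the red inhibitor and also 1 of the 7 red type I targets. Socs1 is in the inhibitor and the interferon-γ target lists.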

How the data were processed

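The values are whole-number counts by gene symbol and library that the authors deposited, made by MACE-Seq on an Illumina sequencer and not normalized. Per the labels, reads were cleaned and trimmed, and the submitters' processing notes name Bowtie, edgeR and GRCm38. The counting tool and the handling of strand are not given in the sources used here. The labels name a small RNA kit where the methods name the MACE-Seq kit. Of 28239 symbols, 2 occurred more than once and were kept as listed. A gene entered the test when 4 or more libraries reached 2 CPM, as in the study's methods. Libraries were scaled by TMM (factors 0.967 to 1.04) and compared with the two-sided quasi-likelihood test of edgeR 4.0.16 in R 4.3.3, without covariates, with Benjamini-Hochberg adjustment over all 12700 genes (threshold 0.05). The common dispersion gave a biological coefficient of variation of 14.5%. The standard error was the log2 fold change divided by the square root of F, and intervals are at 95%. Fits were tested on simulated data. Counts of each pair of replicates differed by more than sampling noise, so all 8 libraries were kept. The study gives 4 Alox15-/- mice for this experiment, the number of libraries with that label, and no number of WT mice. The labels number the libraries and name no animals, so p-values measure the spread between these libraries. Alternatives used DESeq2 1.42.0, limma 3.58.1, other scalings and filters, a replicate block and left-out libraries. Positions are from GENCODE, promoters from RefSeq, and copies from blastn 2.17.0.

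The members and lists were chosen with earlier results of these data known. Named genes are all members, Alox15, up to 5 genes of smallest p past the threshold and the highest and lowest of each list, and the 3 genes nearest Ifngr1.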

Additional observations from a re-analysis of the deposited data

Results flagged for a closer look

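In a group of 4 libraries, 1 library was marked where its gap to the nearest other, as a share of the group's range, was above Dixon's 95% critical value. This was met in 4 of the 72 groups of values examined, or 5.56%, where chance alone gives about 1 in 20. Ifnar1 was low in library 3 labelled Alox15-/-, at 18.2 CPM beside 24.2 to 25.3 CPM. Ifngr2 was high in library 4 labelled Alox15-/-, at 60.3 CPM beside 48.0 to 49.7 CPM. Jak2 was high in WT library 4, at 112 CPM beside 65.8 to 72.6 CPM. The log2 ratio of Jak2 to Jak1 was high in the same library, at -0.51 beside -1.31 to -1.21, and shares the Jak2 count with the previous value.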

How the results depend on the processing

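None of the 9 members passed the threshold under any of the 17 alternatives. Over all genes tested, 388 passed with no filter on low counts, 86 to 172 with 1 library left out and 60 without libraries 2 and 3 labelled Alox15-/-, a setting chosen after seeing the data. With no filter, 1 ligand (Ifng), 2 inhibitors, 12 type I targets and 8 interferon-γ targets passed, and the DESeq2 test called 2 inhibitors. With 1 library left out, the counts were 0 to 2, 2 to 7 and 2 to 6, and without libraries 2 and 3 labelled Alox15-/- they were 0, 1 and 0. Fewer libraries were then tested, and no other cause was tested.

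Members near 0 changed sign. The log2 fold change of Ifnar2 was 0.011 with upper quartile scaling, 0.0012 without libraries 2 and 3 labelled Alox15-/-, and -0.056 to 0.046 with 1 library left out. Without those 2 libraries Jak1 was at 0.062 and Tyk2 at 0.094. With 1 library left out, Jak1 ran from -0.087 to 0.063, Tyk2 from -0.14 to 0.0087, Stat2 from -0.081 to 0.53 and Irf9 from -0.085 to 0.0099. The smallest adjusted p of a member was 0.0727, for Jak2 without WT library 4.

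Libraries with the same replicate number did not deviate together, with correlations of 0.069, 0.165, -0.178 and -0.018 for numbers 1 to 4, and 3 of 8 libraries correlated best with their own number, so the numbers were not taken as pairs. With the replicate number as a block, 146 genes and 0 members passed, with 1 inhibitor, 6 type I and 5 interferon-γ targets, and the members' log2 fold changes kept their sign.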
